A study of Mus musculus with 6 samples.

Results

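The regions described here are runs of neighbouring 1 kb tiles whose DNA methylation was higher in lung endothelium of Dnmt3a knockout mice than in that of wild-type mice. A tile was taken when the mean of the 3 knockout (KO) samples exceeded the mean of the 3 wild-type (WT) samples by 10 percentage points or more and all 3 KO values lay above all 3 WT values. Tiles were thus chosen by their KO and WT levels, and a tile was kept only where 2 or more such tiles were directly adjacent. This left 399 runs with 845 tiles, of 1954255 tiles on chromosomes 1 to 19 (mm10), or 0.0432% of them. The differences between KO and WT in these tiles are therefore a description and carry no test. The same rule gave more runs, 425 to 2574, in each of the 18 assignments that mixed KO and WT samples. These counts left in the general difference between the groups, a median of -4.05 points over all tiles. With each sample centred on the common median level the order changed, to 9570 runs for the KO samples and 921 to 2033 when mixed. On that scale a run can also hold tiles less reduced in KO than the median tile. The rule was also applied to 4 of the samples, without centring. The other KO and WT sample then differed over the chosen runs by a median of -1.40 to -0.227 points. Samples of the same number were left out together. Both comparisons are given in full after the levels and locations.

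The samples were DNA of endothelial cells sorted from lung, 3 of the genotype ko and 3 of the genotype wt, read by tagmentation-based whole-genome bisulfite sequencing, in which unmethylated cytosines are converted and methylated ones are not. The labels give neither the promoter that drove the deletion, nor the age of the mice, nor whether each sample is a different animal. The spread between samples may therefore be technical. Each value is a methylation level in percent. No read counts stand beside the levels, so the depth behind a level is unknown.

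Dnmt3a is a de novo DNA methyltransferase: it places methyl groups on cytosines, mainly at CpG, where there were none. Dnmt1 copies existing methylation after replication, and Dnmt3b is a second de novo enzyme. In adult mammalian cells most CpG are methylated, except at active promoters and enhancers, and large late-replicating, gene-poor stretches can hold intermediate levels.

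Over all tiles the level was 63.7% ± 0.140 in KO and 69.0% ± 0.451 in WT (SD, n = 3 each), and the median tile differed by -4.05 points. The lower gene ends of 12 endothelial marker genes had a median level of 7.84% in KO and 16.6% in WT. Those of 8 leukocyte genes had 50.4% in KO and 56.4% in WT, and those of 4 erythroid genes 47.0% in KO and 52.6% in WT. The lower ends of 7 epithelial genes (13.9% in KO, 23.6% in WT) and 6 mesenchymal genes (10.2% in KO, 31.8% in WT) lay between. Only the lower end of each gene entered these medians. A methylation level at a gene end does not measure how many cells of a type were present.

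Promoters were taken from RefSeq (GRCm38.p6, the assembly that mm10 names) as 250 bases before to 50 after the start. Runs held 0.0432% of all tiles, and 8 of 31396 promoters overlapped a run. The 5 of protein-coding genes are shown because their promoter windows shared bases with a run. CG, the dinucleotide on which methylation is measured and which reads the same on both strands, is in capitals. Sequences are RefSeq's and run 5′ to 3′ on the strand given.
Defb7 lies at chr8:19494847-19495146 (plus strand), Iapp at chr6:142298175-142298474 (plus strand) and Olfr775 at chr10:129250286-129250585 (plus strand), each wholly within its run.
Ugt2a1 lies at chr5:87490822-87491121 (minus strand) with 121 bases in its run, which lies before the start and does not reach it, and Vmn2r91 at chr17:18084807-18085106 (plus strand) with 106.
Defb7: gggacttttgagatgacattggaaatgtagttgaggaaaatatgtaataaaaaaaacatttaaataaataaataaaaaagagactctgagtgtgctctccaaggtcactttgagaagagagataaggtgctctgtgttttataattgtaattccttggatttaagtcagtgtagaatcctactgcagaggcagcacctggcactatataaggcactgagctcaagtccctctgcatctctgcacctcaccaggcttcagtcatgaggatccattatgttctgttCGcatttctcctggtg
Iapp: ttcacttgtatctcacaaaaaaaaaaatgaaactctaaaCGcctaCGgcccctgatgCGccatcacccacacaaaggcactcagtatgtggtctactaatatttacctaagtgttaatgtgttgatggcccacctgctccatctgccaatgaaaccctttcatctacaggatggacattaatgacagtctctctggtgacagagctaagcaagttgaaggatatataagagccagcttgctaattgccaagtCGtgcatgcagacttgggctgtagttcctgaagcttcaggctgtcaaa
Olfr775: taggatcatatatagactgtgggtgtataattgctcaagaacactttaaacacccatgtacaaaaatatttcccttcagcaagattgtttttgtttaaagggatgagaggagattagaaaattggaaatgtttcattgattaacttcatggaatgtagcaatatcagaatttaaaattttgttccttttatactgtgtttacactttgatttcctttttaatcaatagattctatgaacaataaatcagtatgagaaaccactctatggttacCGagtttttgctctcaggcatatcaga
Ugt2a1: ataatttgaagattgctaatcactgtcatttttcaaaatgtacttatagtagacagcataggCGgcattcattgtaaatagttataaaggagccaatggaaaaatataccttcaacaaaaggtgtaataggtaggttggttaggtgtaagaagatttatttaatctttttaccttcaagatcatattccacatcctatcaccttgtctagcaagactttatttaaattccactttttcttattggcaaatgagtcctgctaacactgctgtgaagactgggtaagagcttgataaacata
Vmn2r91: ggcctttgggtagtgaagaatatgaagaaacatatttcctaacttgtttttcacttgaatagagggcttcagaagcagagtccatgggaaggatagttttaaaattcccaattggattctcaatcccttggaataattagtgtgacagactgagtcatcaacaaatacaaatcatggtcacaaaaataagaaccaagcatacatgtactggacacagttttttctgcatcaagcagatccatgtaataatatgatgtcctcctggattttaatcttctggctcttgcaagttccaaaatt
Defb7, Olfr775 and Ugt2a1 held 1 CG each, Iapp held 4 and Vmn2r91 held 0. The other promoters belonged to 4933402J10Rik with 1 CG, Gm39232 with 3 and Gm41987 with 7. The median of these 8 was 1 CG, beside a median of 7 over all promoters, of which 94.8% held at least 1 and 13.8% held 1 or fewer.

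The runs were short and their differences lay close to the threshold. Of the 399 runs, 360 had 2 tiles, 35 had 3, 2 had 4, 1 had 5 and 1 had 7. The median run level was 67.0, 66.0 and 66.2% in the KO samples, against 55.0, 53.7 and 54.6% in the WT samples. Runs differed by a median of 11.8 points (10.1 to 25): 216 differed by under 12 points, 21 by 15 points or more and 1 by 20 points or more. The lowest KO value exceeded the highest WT value by a median of 5.08 points (0.585 to 13.2), and by 5 points or more in 203 runs.

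Most tiles in runs had intermediate levels in WT. The rule used the WT level, so this is a description. Of the tiles in runs, 91.5% had a WT mean of 40 to 70%, beside 41.8% of all tiles. A WT mean under 40% was found in 25 runs and one under 20% in 3 runs, and a KO mean of 80% or more in 12 runs. The median KO mean of the runs was 66.5%, and the share of KO means of 40 to 70% was not counted. The 3 runs nearest inside the threshold differed by 10.07, 10.12 and 10.16 points. The 3 nearest outside it differed by 9.92, 9.86 and 9.84 points, so no gap separated the members from other tiles.

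Passing the rule was itself rare: 3094 tiles passed it alone or in runs (0.158%), and all 3 KO values lay above all 3 WT values in 30161 tiles (1.54%). limma, fitted on all tiles with Benjamini-Hochberg adjustment, called 1958 tiles higher in KO at an adjusted p under 0.05 (0.10%). Of the 845 tiles in runs it called 448, with every tile called in 133 runs and at least 1 in 283 runs. The same contrast chose the tiles, so nothing is read from that share. With any 1 of the 6 samples left out the rule has fewer values to meet, and it then gave 951 to 1270 runs. In those fits limma called 198 to 235 of the 845 tiles, and 0.0762 to 0.0908% of all tiles, higher in KO. The mirrored rule, for lower levels in KO, gave 83282 runs with 274015 tiles (14.0%), the longest of 42 tiles.

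The longest run spanned 7 tiles over Rn18s-rs5, a pseudogene named for its relation to 18S ribosomal RNA, and the overlapping lncRNA AY036118 (chr17:39842001-39849000). Its level was 33.5, 34.3 and 27.0% in KO samples, against 18.2, 12.04 and 14.3% in WT samples. All 3 KO samples were well above all 3 WT samples, with a difference of 16.8 points and a gap of 8.84 points between the groups. Ribosomal RNA genes exist in many near-identical copies, so reads of other copies may enter this run and the value is uncertain. This was not tested.

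The other runs with a WT mean under 20% were in Lars2 and Gphn. At Lars2, the gene of the mitochondrial leucyl-tRNA synthetase (chr9:123461001-123463000, at a gene end), the level was 34.6, 35.6 and 29.0% in KO samples, against 21.3, 15.2 and 17.9% in WT samples. Whether reads of multicopy sequence enter the Lars2 run, as they may at Rn18s-rs5, was not tested, since mappability was not given. In Gphn, whose product gephyrin anchors receptors at inhibitory synapses (chr12:78350001-78352000), it was 32.9, 35.2 and 32.3% in KO samples, against 20.7, 16.8 and 19.2% in WT samples. Both runs were far below their surroundings in each group: the 50 tiles on either side averaged 61.8% in KO and 73.5% in WT at Lars2, and 80.8% in KO and 83.8% in WT at Gphn.

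The largest difference, 25 points, was in Kcnh6, a voltage-gated potassium channel gene (chr11:106031001-106033000). Its level was 67.4, 46.0 and 45.0% in KO samples, against 33.4, 28.9 and 21.1% in WT samples. Replicate 1 was the highest of its group in both, and the KO values had an SD of 12.7 points. Atf2, which encodes a transcription factor of the bZIP class, followed with 19.04 points (chr2:73867001-73869000): 56.1, 52.2 and 43.7% in KO samples, against 35.0, 24.6 and 35.4% in WT samples. The lowest KO value lay 11.6 points above the highest WT value in Kcnh6 and 8.34 points above it in Atf2.

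Several of the largest differences lay far from protein-coding genes, and others inside them, as in Kcnh6, Atf2 and Rgs20. A 3-tile run 147 kb from Slitrk1, a synaptic adhesion gene (chr14:109061001-109064000), had 69.6, 60.9 and 59.7% in KO samples, against 47.9, 47.9 and 43.6% in WT samples. A run 1473 kb from Ralyl, the nearest protein-coding gene (chr3:11997001-11999000), had 68.2, 65.9 and 67.3% in KO samples, against 56.7, 52.4 and 42.7% in WT samples. The KO samples were close together there and the WT samples spread widely. In the lncRNA gene Gm36903 (chr16:39476001-39479000), 449 kb from Igsf11, a 3-tile run had 64.8, 70.6 and 64.9% in KO samples, against 49.99, 48.0 and 52.9% in WT samples.

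On chromosome 6, a pair of runs in the first Mb of tiles lay 170 and 204 kb from Samd9l. The run at chr6:3200001-3202000 had 46.6, 46.6 and 40.6% in KO samples, against 30.7, 25.5 and 28.2% in WT samples, and the run at chr6:3165001-3168000 had 57.8, 59.4 and 59.6% in KO samples, against 46.3, 50.3 and 38.6% in WT samples. On chromosome 9, the run at chr9:3258001-3261000, 74 kb from Alkbh8, had 45.2, 46.2 and 42.3% in KO samples, against 31.7, 25.3 and 33.9% in WT samples. The gap between the lowest KO and the highest WT value was 9.84, 7.51 and 8.45 points in these runs. Of the 399 runs, 4 lay within 1 Mb of the first tile of a chromosome, with 1.18% of the tiles in runs, beside 0.739% of all tiles.

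Among the other long runs, the 5-tile run at chr8:42525001-42530000, 600 kb from Triml1, had 56.2, 54.7 and 57.6% in KO samples, against 44.2, 46.0 and 41.2% in WT samples. The 4-tile run at chr1:47781001-47785000, 855 kb from Slc39a10, a zinc transporter gene, had 70.7, 71.2 and 72.8% in KO samples, against 60.5, 55.5 and 58.1% in WT samples. The KO samples were close together in both, with an SD of 1.43 points in the 5-tile run and 1.06 points in the 4-tile run. The 4-tile run in Csmd1, a large gene for a membrane protein with complement control domains (chr8:17274001-17278000), had 69.3, 83.0 and 65.5% in KO samples, against 64.3, 57.9 and 58.9% in WT samples. KO replicate 2 decided it: without that sample the difference was 7.01 points instead of 12.2. A 3-tile run 297 kb from Mdga2 (chr12:67520001-67523000) had 54.5, 50.3 and 66.6% in KO samples, against 38.7, 44.8 and 46.2% in WT samples, and its difference of 13.9 points was 9.15 points without KO replicate 3. A 3-tile run 80 kb from Nudt12 (chr17:59093001-59096000) had 66.6, 64.5 and 68.3% in KO samples, against 52.9, 54.1 and 51.1% in WT samples.

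**Figure D1:**
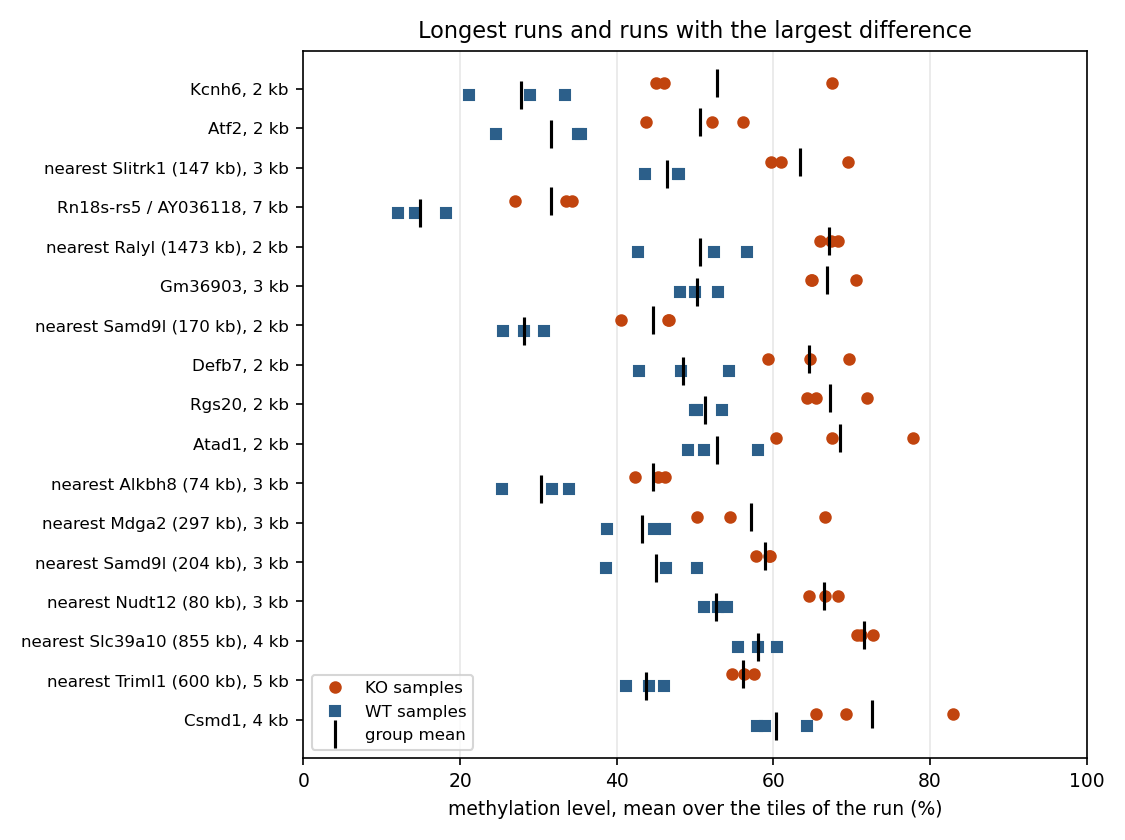
Methylation level of each sample (x axis, percent, mean over the tiles of a run) in the longest runs and those with the largest differences (rows, named by the overlapping or nearest gene, with the run's length). KO samples are circles, WT samples squares and group means vertical bars; in every row the 3 KO samples lie right of the 3 WT samples, which the rule required, and only Rn18s-rs5 has a WT mean under 20%.

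Around the runs, the level dipped locally in WT and peaked locally in KO. The rule fixed the direction inside the run. The level in the runs was 66.0% ± 0.253 in KO and 53.9% ± 0.618 in WT (SD, n = 3 each). The KO level was 61.5% ± 0.183 at 4 kb before the run and 63.8% ± 0.346 at 4 kb after it. WT had 63.5% ± 0.434 and 66.1% ± 0.264 there. The tile before the run had a value for 244 of the 399 runs and the tile after it for 253. In the tile before the run KO had 66.6%, beside 66.0% in the run over all 399. In the tile next to a run KO was 5.33 points higher on the side of lower coordinates and 4.95 points higher on the other side, and at 2 kb the differences were 1.10 and 0.968 points. At 3 kb KO was lower than WT, with differences of -1.69 and -1.33 points, and at 4 kb with -1.996 and -2.32 points. The rule was applied to the tiles next to a run too, and a run ends where they fail it or have no value, so their differences are a description as well.

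The levels of the runs were also set beside those of their surroundings. The rule used the run levels, so this contrast is a description. The mean of the 50 tiles on either side was 62.2% in KO and 63.6% in WT, as medians over the runs. The WT mean of the run was below its WT surroundings in 358 of 399 runs, and the KO mean of the run was above the WT surroundings in 260. Runs with a KO mean above their KO surroundings were not counted. Tiles 3 to 10 kb from a run, 4438 in all, had a median difference of -1.57 points and a KO mean above the WT mean in 35.2%, beside -4.05 points and 20.5% over all tiles. In these flanks the SD between samples had a median of 4.03 points in KO and 3.92 points in WT, beside 3.83 points in KO and 3.61 points in WT over all tiles.

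**Figure D2:**
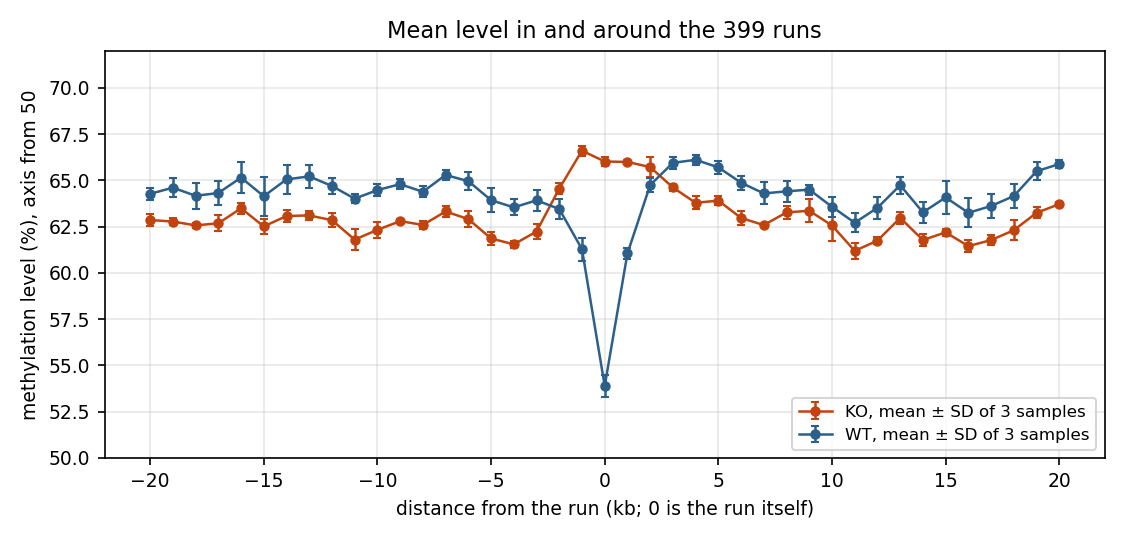
Mean methylation level (y axis, percent, drawn from 50) of the 3 KO and 3 WT samples against the distance from the run in kb (x axis; 0 is the run, negative values are lower coordinates); points are group means over the available tiles and bars the SD between samples. WT drops to 53.9% in the run, KO has a local peak of 66.0% in the run and 66.6% in the tile before it, and from 3 kb outward KO lies below WT.

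The runs lay mostly outside genes. Of their tiles, 64.3% were outside annotated genes, beside 44.7% of all tiles, and 23.3% were inside protein-coding genes away from the ends, beside 41.4%. Tiles within 1000 bp of an end of a protein-coding gene made up 3.08% of the tiles in runs, 26 tiles in 14 runs, beside 5.05% of all tiles. Other annotated genes held 9.35% of the tiles in runs, beside 8.87% of all tiles. As runs, 251 were outside genes, 94 inside protein-coding genes, 14 at their ends and 40 in other genes. The classes also differed in KO minus WT as a mean over all their tiles. It was -4.33 points outside genes, -6.26 inside protein-coding genes, -6.33 at their ends and -5.84 in other genes. How far the shares of tiles in runs follow these differences was not tested.

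**Figure D3:**
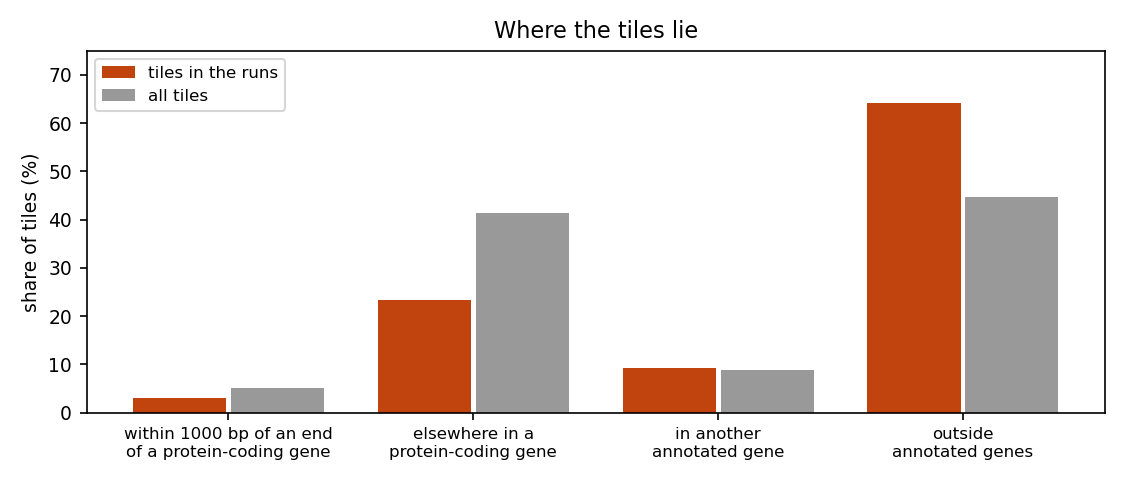
Share of tiles in percent (y axis, from 0) in 4 classes of location (x axis), for the tiles in the runs (left bar of each pair) and for all tiles (right bar). Tiles outside annotated genes make up 64.3% of those in the runs and 44.7% of all tiles; tiles inside protein-coding genes make up 23.3% of those in the runs and 41.4% of all tiles.

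They also lay far from unmethylated sites and from genes. The median distance of a tile in a run to the nearest tile under 10% in WT, as found at active promoters, was 303 kb, beside 73 kb over all tiles. It was over 200 kb for 62.8% of tiles in runs and 28.0% of all tiles, and within 5 kb for 1.18% of tiles in runs and 8.37% of all tiles. For tiles outside genes, the nearest protein-coding gene was a median of 202 kb away in the runs and 81.4 kb away over all such tiles. Among 1 kb positions within 50 kb, a median of 29.7% had no value in the deposited table for tiles in runs, and 10.9% for all tiles. Mappability, CpG number and coverage were not given with the levels, and their part in the result was not tested.

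Tiles of runs in protein-coding genes lay in genes with a higher median length than all such tiles. The tiles in runs lay in genes with a median length of 343 kb, beside 129 kb for all tiles in protein-coding genes, and 36.4% of them were in genes over 500 kb, beside 16.4%. Short genes held runs too, such as Klra5 (14.3 kb), Slc6a18 (16.3 kb) and Kcnh6 (27.6 kb), picked out after their values were seen. In all, 100 protein-coding genes and 45 other genes held a run. The 9 genes with 2 or more runs, picked out after their values were seen, were Zfp804b with 3, and Cntn4, Csmd1, Fgf12, Gm14412, Nrg3, Rbfox1 and the Igh and Tcra loci with 2 each. Cntn4 encodes a contactin of neuronal adhesion, Nrg3 a neuregulin, Rbfox1 a neuronal splicing regulator and Fgf12 an intracellular fibroblast growth factor homologue.

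The 3 runs of Zfp804b, which lie at chr5:6964001-6966000, chr5:7040001-7042000 and chr5:7270001-7272000, had differences of 10.7, 12.5 and 10.3 points. In Cntn4 the run at chr6:106646001-106648000 had 58.0, 51.1 and 50.2% in KO samples, against 33.7, 45.4 and 39.2% in WT samples. The next run in this gene starts 2 kb after its end. In Nrg3 the run at chr14:38997001-38999000 had 56.5, 58.5 and 53.2% in KO samples, against 38.6, 37.9 and 45.5% in WT samples. Runs were seldom close to each other: 6 of 399 lay within 10 kb of another run and 35 within 100 kb, and the median distance to the next run was 1186 kb.

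By chromosome, runs were densest on chromosome 17, with 31 runs or 4.07 per 10000 tiles, followed by chromosome 14 with 34 runs or 3.64 and chromosome 1 with 40 runs or 2.62. Chromosome 13 had 10 runs or 1.04 per 10000 tiles, chromosome 10 had 1.14 and chromosome 19 had 6 runs or 1.19. These densities were not tested.

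The 14 runs at ends of protein-coding genes included those of a defensin, a hormone and chemosensory receptors. Defb7, a beta-defensin of antimicrobial defence whose promoter is shown above, had 64.6, 69.7 and 59.3% in KO samples, against 54.3, 48.2 and 42.9% in WT samples. Atad1, an ATPase of the mitochondrial outer membrane (chr19:32737001-32739000), had 67.5, 77.8 and 60.3% in KO samples, against 58.0, 51.2 and 49.1% in WT samples. The lowest KO value was 5.02 points above the highest WT value in Defb7 and 2.35 points above it in Atad1.

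At Iapp, which encodes the islet hormone amylin, the run also overlapped Slco1a5, an organic anion transporter, and had 61.1, 65.0 and 60.4% in KO samples, against 44.7, 52.6 and 51.1% in WT samples. Ugt2a1, a UDP glucuronosyltransferase known from olfactory epithelium, had 66.4, 72.6 and 74.3% in KO samples, against 60.8, 55.6 and 56.2% in WT samples. The groups did not overlap in either run, as the rule required. Klhl33, of the kelch-like family, had 71.7, 78.7 and 66.2% in KO samples, against 56.8, 58.2 and 61.2% in WT samples. The differences at Olfr907, 1700001J03Rik, Gm8300 and Vmn2r91 were 13.1, 12.7, 12.2 and 12.2 points.

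Gene families were counted by symbol for 29 families, and the share of a family's tiles that lay in runs was set beside 0.0432% over all tiles. Vomeronasal receptor genes, which serve the detection of pheromones, held 4 runs (Vmn1r-ps40, Vmn2r91, Vmn2r120, Vmn2r127) and 0.221% of their tiles. The T cell receptor loci held 3 runs and 0.368% of their tiles. Genes of receptor tyrosine phosphatases held 4 runs (Ptprc, Ptprn2, Ptprq, Ptprt) and 0.119%, and the Dlg, Magi and Csmd genes, which include synaptic scaffolds, 4 runs and 0.160%. Zinc finger genes with Zfp symbols held 5 runs and 0.0848%. These counts are small, share neighbouring positions and were not tested. The families also differed in their general change, KO minus WT as a mean over all tiles of a family. It was -0.909 points in the vomeronasal receptor genes, -2.99 in the T cell receptor loci and -3.29 in the Dlg, Magi and Csmd genes. In the phosphatase genes it was -5.36 points and in the Zfp genes -5.84. Over all tiles the mean was 63.7% in KO and 69.0% in WT. How far the shares follow this change was not tested.

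The run with the largest difference in each of these families was as follows. In Vmn1r-ps40 (chr7:5571001-5573000), a pseudogene, the level was 68.2, 67.2 and 64.2% in KO samples, against 51.2, 56.7 and 48.4% in WT samples. In Tcrb (chr6:41485001-41487000), the T cell receptor beta locus, it was 65.1, 58.2 and 61.8% in KO samples, against 49.2, 48.5 and 43.9% in WT samples. The difference was 14.5 points in each. In Ptprq (chr10:107514001-107516000), a phosphatase of inner ear hair cells, it was 80.02, 74.5 and 69.8% in KO samples, against 64.4, 57.8 and 66.7% in WT samples. In Magi2 (chr5:19440001-19442000), a synaptic scaffold, it was 75.6, 83.5 and 76.1% in KO samples, against 63.0, 68.4 and 66.2% in WT samples. In Zfp292 (chr4:34832001-34834000) it was 70.2, 80.03 and 69.1% in KO samples, against 57.6, 63.0 and 61.3% in WT samples. KO replicate 2 was the highest KO sample in Magi2 and Zfp292, and replicate 1 in the others.

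The other shares are set beside the same 0.0432% over all tiles. Those of the solute carrier, Rik and potassium channel genes were near it. Solute carrier genes held 4 runs (0.0439% of their tiles), with the largest difference in Slc6a18, an amino acid transporter (13.3 points), and Rik genes 9 runs (0.0423%), with the largest in 4930440I19Rik (14.1 points). Predicted genes with Gm symbols held 26 runs (0.0273%), with the largest in Gm36903. Odorant receptor genes held 1 run, at Olfr775 (0.0721% of their tiles), and the immunoglobulin loci 2 runs (0.102%). The Serpin, defensin, Mup, Klr, Skint, Scgb, H2- and glutamate or GABA receptor families held 1 run each, at Serpinb7, Defb7, Mup-ps12, Klra5, Skint6, Scgb1b34-ps, H2-M10.5-ps1 and Gria4. Their shares, each of which rests on 1 run, were lowest in the glutamate and GABA receptor genes (0.0223%) and highest in the Scgb genes (1.87%). KO minus WT over all tiles of the family was -2.35 points in the glutamate and GABA receptor genes and -0.907 in the Scgb genes. Potassium channel genes held 2, in Kcnh6 and Kcnd2 (0.0441%), and the synaptic adhesion and leucine-rich repeat genes 2, in Lrrtm4 and Lrrc4c (0.0574%). The families Taar, Pcdh, Hox, Krt and Krtap, Ugt, Cyp, Ceacam, Adgr and Gpr, and Cdh held 0. The run at Ugt2a1 lay beside the gene, within 1000 bp of its end.

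Runs outside genes were assigned to the nearest protein-coding gene. An odorant receptor gene was nearest for 10 of these 251 runs (3.87% of their tiles, beside 1.60% of all tiles outside genes) and a vomeronasal receptor gene for 8 (3.13%, beside 0.883%). The nearest gene was one of synaptic adhesion or leucine-rich repeat proteins for 7 (2.95%, beside 0.540%), a cadherin for 7 (2.95%, beside 1.56%) and a protocadherin for 5 (2.03%, beside 1.21%). A predicted gene with a Gm symbol was nearest for 17 (6.63%, beside 3.96%) and a solute carrier gene for 5 (2.21%, beside 1.95%). Shares below that of all tiles outside genes were found for Zfp genes with 1 run (0.552%, beside 1.43%), potassium channel genes with 2 (0.737%, beside 0.968%) and Rik genes with 5 (1.84%, beside 2.07%). How far these shares follow distance to genes was not tested.

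The cell type markers held 1 run in all. Of all 20665 protein-coding genes on chromosomes 1 to 19, 100 held a run, so nothing is read from the counts of these short lists. None of the 12 endothelial markers held a run, nor did the epithelial, mesenchymal and erythroid markers. Of the 8 leukocyte markers, Ptprc, which encodes CD45, held 1 run (chr1:138156001-138158000), with 74.2, 71.8 and 75.04% in KO samples, against 64.4, 63.6 and 60.1% in WT samples. Vwf, the von Willebrand factor gene of endothelium, was picked out after the values were seen. Its run (chr6:125683001-125685000) had 72.3, 67.2 and 77.2% in KO samples, against 62.8, 56.0 and 60.3% in WT samples.

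Other runs taken for a small limma p of their best tile were those in and near Camk1d, Scgb1b20 and Epm2a. In Camk1d, a calcium/calmodulin-dependent kinase gene (chr2:5379001-5381000), the level was 57.9, 51.8 and 49.5% in KO samples, against 40.7, 37.7 and 41.3% in WT samples. A run 58 kb from Scgb1b20, a secretoglobin gene (chr7:33433001-33435000), had 56.2, 58.0 and 57.7% in KO samples, against 43.4, 37.7 and 45.5% in WT samples. A run 31 kb from Epm2a, the laforin gene (chr10:11491001-11493000), had 46.0, 45.8 and 36.3% in KO samples, against 31.9, 24.9 and 30.7% in WT samples. Rgs20, a regulator of G protein signalling taken for its difference of 16.0 points (chr1:4943001-4945000), had 71.9, 65.4 and 64.3% in KO samples, against 50.01, 50.2 and 53.5% in WT samples. The groups were 8.23, 10.7, 4.36 and 10.8 points apart in these 4 runs.

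The number of runs was then set beside the number that the same rule gave when KO and WT samples were mixed. There are 20 ways to place 3 of the 6 samples on the higher side, of which 18 mix the groups. The 3 KO samples gave 399 runs. Assignments with 2 KO samples and 1 WT sample on the higher side gave 425 to 778 runs (median 582, 9 assignments), and those with 1 KO sample and 2 WT samples gave 1565 to 2574 (median 2456, 9 assignments). The 3 WT samples gave 83282. The count with all KO samples on the higher side was thus below that of each of the 18 mixed assignments.

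The share of passing tiles that gathered into runs lay within the range of the mixed assignments. Of the 3094 tiles higher in KO, 27.3% lay in runs, against 24.5 to 30.6% in the 18 mixed assignments and 80.8% for tiles lower in KO. The longest run was of 7 tiles with the KO samples on the higher side, and of 4 to 7 tiles in the mixed assignments. The assignments share samples and are not independent, and no p was formed from them.

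**Figure D4:**
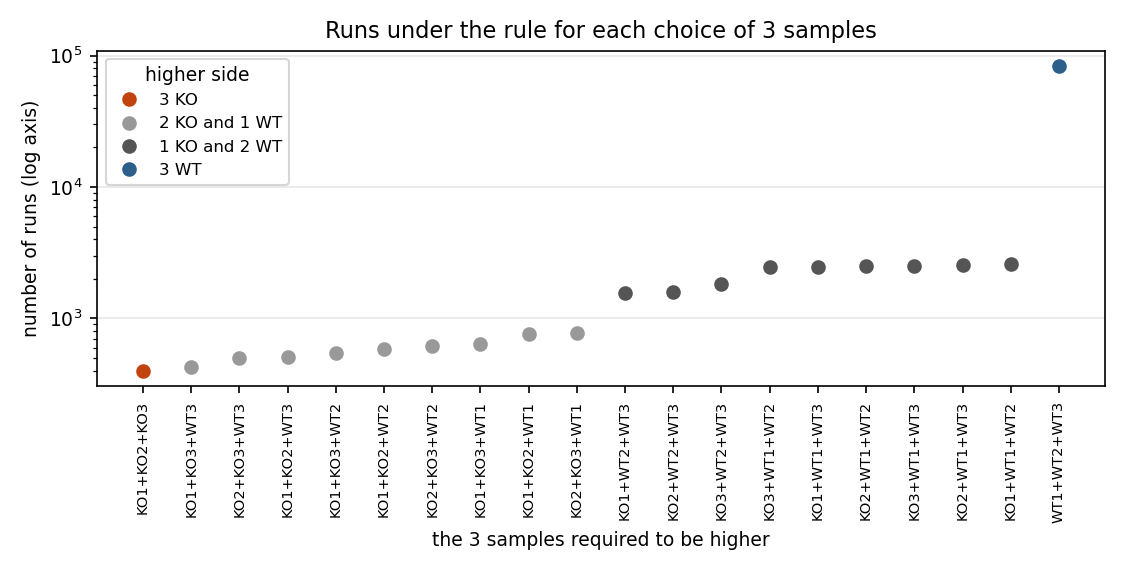
Number of runs (y axis, log scale) for each of the 20 choices of 3 samples required to be higher (x axis), coloured by how many KO samples are among them. The KO samples give 399 runs, the 18 mixed choices 425 to 2574 and the WT samples 83282, with levels not centred.

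The order changed when the general difference between the groups was taken out. After each sample was centred on the common median level, which raised KO relative to WT by 4.89 points, the KO side gave 9570 runs. Assignments with 2 KO samples and 1 WT sample then gave 1557 to 2033 runs, those with 1 KO sample and 2 WT samples 921 to 1234, and the WT side 40698. On that scale a run marks tiles that were less reduced in KO than the median tile as well as tiles that were higher, so the counts before and after centring are of different things. Counting all assignments on this scale was added after the data were seen.

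Samples that took no part in choosing the runs gave an independent measure of the difference. The rule was applied with 2 KO and 2 WT samples, and the remaining KO and WT sample were then compared over the runs so chosen. With the samples numbered 1 left out, 2372 runs were chosen, with a median difference of 12.1 points in the choosing samples and -1.40 points in the left-out samples. With those numbered 2 left out, 1811 runs had 12.1 points in the choosing samples and -0.440 points in the left-out samples. With those numbered 3 left out, 1990 runs had 12.2 points in the choosing samples and -0.227 points in the left-out samples. The left-out difference was thus near 0 each time.

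In the left-out samples KO lay above WT in 42.5, 47.3 and 48.9% of the runs, and by 10 points or more in 5.65, 9.44 and 6.98%. Over all tiles the same sample pairs had medians of -5.03, -4.14 and -4.04 points, and KO above WT in 25.02, 28.9 and 28.4%. The quartiles over runs were -5.88 and 3.50 points for the first pair, -5.39 and 4.40 for the second and -4.90 and 4.47 for the third. Over all 9 pairs of a KO and a WT sample the left-out medians ran from -1.40 to 0.0601 points. With 1 sample a group there is no test of these values.

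Runs of the mirrored rule differed in this respect. Those chosen as lower in KO by 4 samples, 93050, 99651 and 102587 runs, had medians of -15.6, -15.5 and -15.5 points in the choosing samples and -14.1, -12.6 and -11.8 points in the left-out samples. The left-out KO sample was lower by 10 points or more in 67.9, 61.8 and 58.8% of them. It was above the left-out WT sample in 5.35, 7.26 and 7.29% of these runs.

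**Figure D5:**
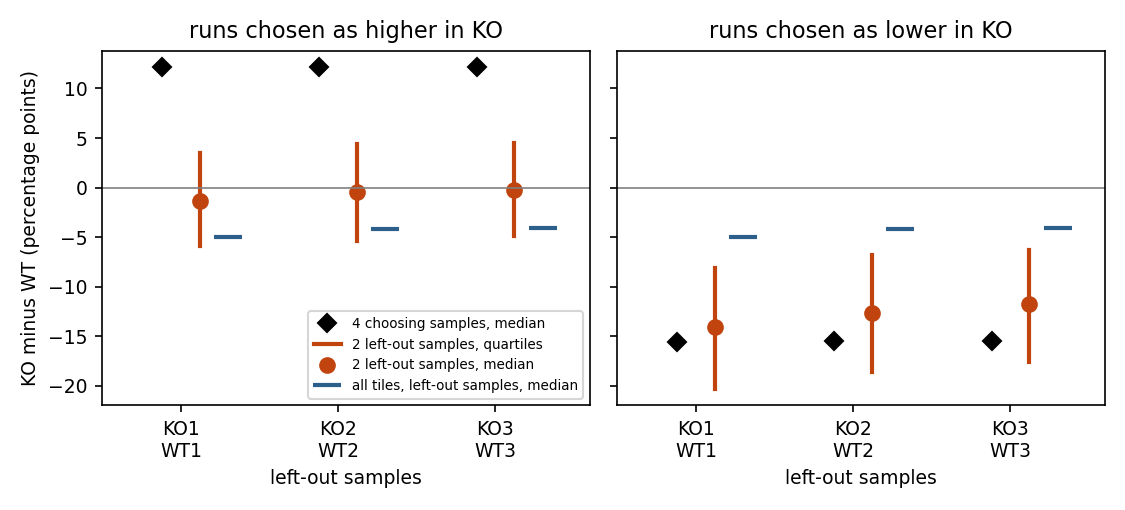
KO minus WT level in percentage points (y axis) over runs chosen as higher in KO (left panel) or lower in KO (right panel) with 4 samples, for each left-out pair of samples (x axis). Diamonds are medians in the choosing samples, circles and vertical lines the medians and quartiles in the left-out samples and horizontal dashes the median of all tiles; on the left the circles lie between -1.40 and -0.227 points, on the right between -14.1 and -11.8.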

How the data were processed

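DNA methylation of 3 KO and 3 WT samples of sorted lung endothelium was read by bisulfite sequencing of tagmented DNA, with samples grouped by the genotype in the labels. Per the labels' protocols, 30 ng of DNA per sample went into 3 libraries with paired-end reads of 100 bases. The submitters' processing notes name BWA 0.7.8 and the build mm10. The authors deposited 1 table, which per the file headers holds the methylation fraction (0 to 1) of every sample in 1 kb tiles. For the caller, any smoothing and any coverage filter, the choice is not given in the sources used here. Depth is unknown, and values of neighbouring tiles need not be independent.

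Fractions were turned into percent, and the rule was applied with numpy 2.4.6 and pandas 2.3.3 (Python 3.11.15). The design foresaw a logistic model if read counts were given. As they are not, limma 3.58.1 (R 4.3.3) was fitted on the level of all tiles, with a trend of variance on level and Benjamini-Hochberg adjustment. Both were run on simulated data with planted rises. The rule's simulated samples differed far less than the real ones, so its run checked the code only. Gene positions came from a RefSeq table of GRCm38.p6 (47042 entries on chromosomes 1 to 19, of which 20665 are protein-coding genes) and promoters from a RefSeq table with strand. No genome was used, so base composition and repeats were not analysed here.

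The members, families and lists were chosen with earlier results of these data known. Runs named are the 10 longest, the 10 with the largest difference, the 10 with the largest difference at ends of protein-coding genes, the 10 with the smallest limma p of their best tile, and the run of largest difference in each family with 3 or more runs, 36 in all. The 3 runs nearest to the threshold on each side were added. Alternatives were other thresholds, run lengths, scalings, a replicate block and leaving out each sample. Samples were not treated as paired by replicate number in the main results, and whether the numbers pair them is not known.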

Additional observations from a re-analysis of the deposited data

How the results depend on the processing

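The count of runs depended on the rule's limits. Against 399 runs and 845 tiles, a difference of 5 points or more gave 3736 runs and 8285 tiles, 15 points 13 runs and 30 tiles, and 20 points 1 run and 2 tiles. Allowing KO and WT values to overlap gave 615 runs and 1315 tiles, asking for 3 or more tiles 39 runs and 125 tiles, and counting single tiles too 2648 runs and 3094 tiles. Centring on the common median gave 9570 runs and 21895 tiles, and scaling to one mean level 13173 runs and 30199 tiles. Leaving out 1 sample, which leaves the rule fewer values to meet, gave 951 runs (without KO replicate 2) to 1270 runs (without WT replicate 1), with 2031 to 2724 tiles, and 273 to 307 of the 399 runs were found again.

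Allowing a gap of 1 tile (445 runs), leaving out the first Mb of tiles (395 runs) and leaving out runs with a WT mean under 20% (396 runs), the last pair chosen after the data were seen, kept the count within 1.5 times. Of the 845 tiles, limma called 61 at an adjusted p under 0.01, 842 after scaling, 360 on M-values and 198 to 235 without 1 sample, which lowers the number of samples. Of all tiles it called 0.0117% higher in KO at an adjusted p under 0.01, 2.35% after scaling and 0.0727% on M-values. Without 1 sample it called 0.0762 to 0.0908% of all tiles higher. Same-numbered samples correlated in their deviations at 0.00563, -0.00321 and 0.011, so they hardly shared deviations of single tiles. Whether the numbers pair the samples in another way is not known. With a replicate block, each KO value above the WT value of its number, there were 513 runs and 1084 tiles. With the replicate block limma called 405 of the 845 tiles, beside 0.103% of all tiles.

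Of the tiles in runs of 3 or more tiles, 69.6% were outside genes and 5.6% at gene ends. The single run of 20 points has 0% in both classes. With gene ends widened to 5000 bp the share was 7.34%, beside 15.1% of all tiles. The left-out difference was -0.688 points as a mean of 3 pairs, -0.611 over 9 pairs and -0.807 with single tiles. For the 36 named runs, 288 alternative values were computed, of which 248 moved by less than the spread between samples and 40 by more. Their direction could not change, since the rule fixed it for any subset of samples and both scalings raise KO relative to WT. Unknown depth limits all values, and tiles with few CpG cannot be told from others.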
